A study of Mus musculus with 16 samples.

Results

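The 71 genes described here encode the classical axon guidance cues and their receptors. They are the protein-coding mouse genes whose symbol is that of a semaphorin (Sema), plexin (Plxn), Slit, Robo, netrin (Ntn and Ntng), Unc5, EphA, EphB, ephrin-A (Efna) or ephrin-B (Efnb) family member, together with the neuropilins Nrp1 and Nrp2, Dcc and Neo1. They were taken by symbol alone, out of 53801 gene identifiers in the count table, and Slitrk genes, Unc5cl, Unc50 and the antisense genes of Plxna4 were left out. The 12 families comprise 36 ligand genes (20 semaphorins, 3 Slits, 5 netrins, 5 ephrin-As and 3 ephrin-Bs) and 35 receptor genes (9 plexins, 2 neuropilins, 4 Robos, 2 of the DCC and neogenin family, 4 Unc5 receptors, 9 EphA and 5 EphB receptors).

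A growing axon is steered by cues that either attract or repel its growth cone. Semaphorins bind plexins, and most secreted class 3 semaphorins need a neuropilin as the binding co-receptor. Slits repel axons through Robo receptors. The secreted netrin Ntn1 attracts through DCC and neogenin and repels through Unc5 receptors. The membrane-bound ephrins act on Eph receptor tyrosine kinases with signalling into both cells. In the forebrain after birth, the same molecules also take part in the shaping of dendrites and synapses, in the guidance of migrating interneurons and in the growth of blood vessels.

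RNA of the cortex and the striatum of mice aged 10 days, of the strain C57BL6/J-129sv, was sequenced to ask which genes depend on Trrap, the scaffold subunit of histone acetyltransferase complexes, in forebrain neurons. The control mice were Trrap Fl/+ and the Trrap-FBΔ mice Trrap Fl/Fl, and both carried the Camk2-Cre transgene, which the study describes as active in glutamatergic forebrain neurons. The 16 libraries of 9 mice form 4 groups of 4. Control cortices came from mice 55, 58, 63 and 64, control striata from mice 58, 63, 64 and 65, and both Trrap-FBΔ tissues from mice 57, 59, 60 and 61, so that 7 mice gave both tissues. Each library holds RNA of a whole tissue piece, including cells in which this Cre is not active, and fewer cells of a type and less RNA per cell cannot be told apart. Each mouse gave 1 library per tissue, and values in the order of a group follow the order of the mice given here.

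Between 28743866 and 48761429 reads were counted on genes per library. Counts over Trrap itself overlapped between control and Trrap-FBΔ libraries (136 to 173 against 121 to 146 CPM in the cortex, and 140 to 151 against 135 to 148 CPM in the striatum, where CPM is the count scaled to a library size of 1000000, with TMM factors), so the genotype follows the labels. The tissue labels were checked against marker genes. Summed CPM of 6 cortical excitatory neuron markers was 1390 to 1796 in the 8 cortices and 190 to 513 in the 8 libraries labelled striatum. The 8 striatal projection neuron markers did not separate the tissues, with 254.5 to 695 CPM in control cortices, 310 to 418 in Trrap-FBΔ cortices, 217 to 1117 in control striata and 331 to 542 in Trrap-FBΔ striata. Among the controls, these markers were highest in the striatum of mouse 64 and lowest in that of mouse 58, and the cortices of mice 58 and 63 (664.5 and 695 CPM) lay above those of mice 55 and 64. A set of 4 thalamic genes chosen after the values were seen (Slc17a6, Tcf7l2, Lhx9 and Gbx2) summed to 48.1 to 92.9 CPM in the cortices and 320 to 538 CPM in the libraries labelled striatum. "Striatum" is therefore used below only as the label of these libraries. Counts were also recomputed without the control cortices of mice 58 and 63 and the control striatum of mouse 58. The control striatum of mouse 64, with the highest sum of striatal projection neuron markers (1117 CPM), was kept in that fit.

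Markers of several other cells moved with the genotype, and those of others did not. From control to Trrap-FBΔ, the summed CPM of 5 microglial markers went from 230 to 261 down to 162 to 209 (cortex) and from 186 to 223 down to 143 to 158 (striatum). For 5 immature neuron genes it went from 1953 to 2427 down to 1152 to 1520 in cortical libraries, and the striatal ones stood at 2021 to 2248 and 1402 to 1561. In each tissue 3 of these 5 genes were called lower. In the cortex Nnat went the other way, with a mean of 277 CPM in controls and 306 CPM in Trrap-FBΔ, and was not called. Endothelial markers were at 188 to 234 and 154 to 174 CPM in the cortex and overlapped in the striatum (155 to 238.5 and 150 to 191 CPM), and oligodendrocyte precursor markers were at 291 to 315 and 227 to 249 CPM in the cortex and at 392 to 464.5 and 297 to 344 CPM in the striatum. The 4 mural cell markers were at 259 to 330 and 192 to 262 CPM in the cortex and at 278 to 336 and 196 to 245 CPM in the striatum. Mature oligodendrocyte markers spanned 1593 to 2859 CPM in control cortices and 1141 to 1804 CPM in Trrap-FBΔ cortices, where all 5 were called lower. In striata they spanned 2891 to 8745 CPM in controls and 3606 to 6415 CPM in Trrap-FBΔ, with 0 of the 5 called. The sum of cortical excitatory markers did not fall in the Trrap-FBΔ cortex (1568 to 1693 CPM), where 1 of the 6 was called lower. In the striatum it was at 293 to 513 and 190 to 299 CPM, with 4 of the 6 called lower and 0 higher. The 4 thalamic genes summed to 52.6 to 92.9 CPM in control and 48.1 to 56.7 CPM in Trrap-FBΔ cortices, and to 320 to 532.5 and 434 to 538 CPM in striata, where 2 of the 4 were called higher in Trrap-FBΔ (mean CPM in control and Trrap-FBΔ striata was 32.9 and 56.2 for Lhx9, and 109 and 150.3 for Tcf7l2). Astrocyte markers summed to 1445 to 1591 and 1469 to 1638 CPM in the cortex, where 2 were called higher and 2 lower. In the striatum they were at 1739 to 1908 and 1863 to 1913 CPM, with 2 higher and 0 lower. The sums of inhibitory interneuron, blood, choroid plexus and meningeal markers also overlapped between the genotypes in both tissues. The part of all these shifts in the results below was not tested.

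All 71 genes were detected, and all passed the filter on low counts in every comparison. Levels of different genes were compared per length, as TPM, the count per exon length scaled to the same total in every library, over the union of the exons of a gene. In the control cortex, the transmembrane ephrin Efnb3 had the highest level (195 ± 17.5 TPM, mean ± SD, n = 4), followed by the GPI-anchored semaphorin Sema7a (184 ± 18.7), the ephrin receptor Epha4 (148 ± 11.9), the kinase-dead receptor Ephb6 (121 ± 7.23) and neogenin (Neo1, 111 ± 15.5). Neighbours in this order at the top, Efnb3 and Sema7a, and Ephb6 and Neo1, differed by less than their spread. At the other end stood Efna4 (2.07 TPM), Epha2 (1.69), Ntn5 (0.677) and Epha1 (0.414). In the libraries labelled striatum, Efnb3 was again highest in controls (239 ± 13.2 TPM), with Neo1 next (92.3 ± 11.1), while Sema7a (65.1 ± 7.26) and Epha4 (61.6 ± 6.05) stood lower. Summed over a family, the 20 semaphorins made up 685 ± 14.2 TPM in the control cortex and 575 ± 57.8 in the control striatum, and the 9 plexins 469 ± 33.2 and 406 ± 42.2. The 3 ephrin-Bs reached 259 ± 21.4 and 291 ± 21.9 TPM, most of it Efnb3, and the 2 neuropilins 32.0 ± 6.47 and 56.3 ± 4.75 TPM.

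**Figure D1:**
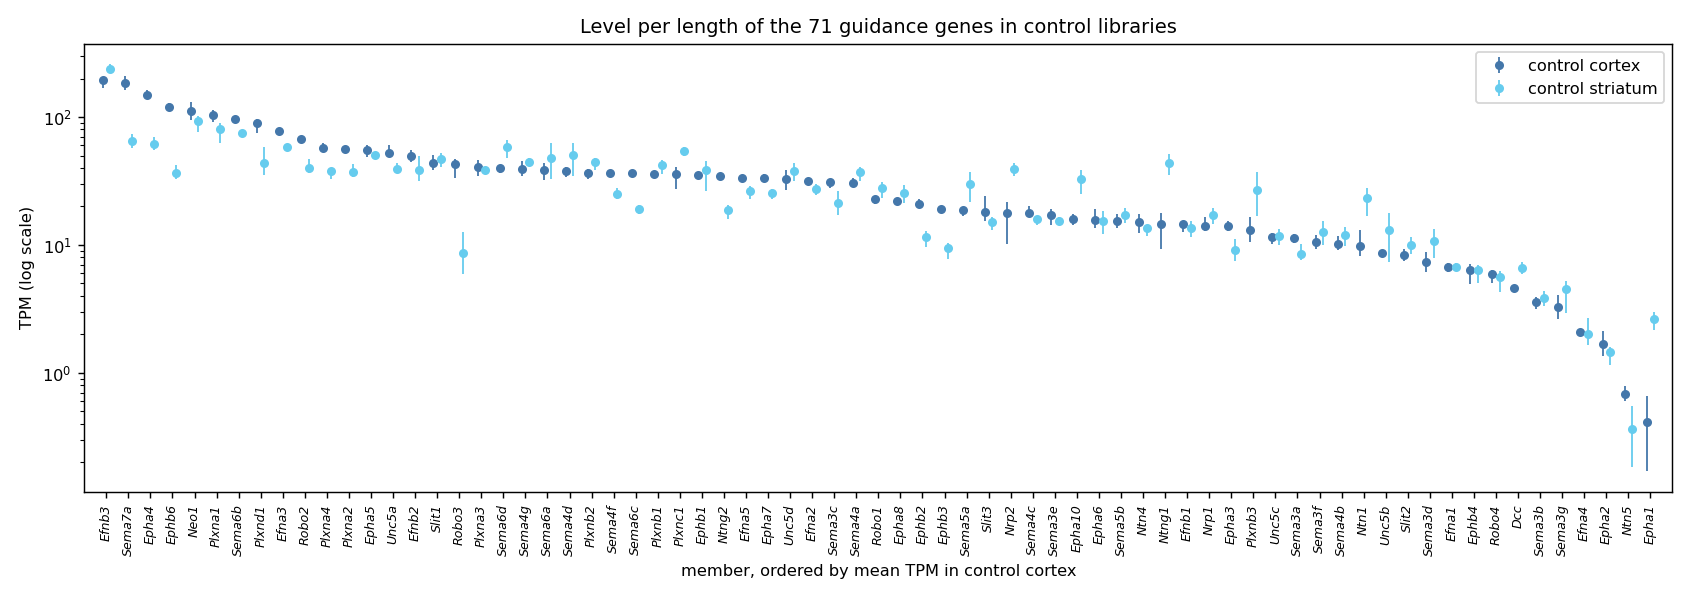
Level of each of the 71 genes in TPM (log scale) in control cortex and control striatum, ordered by the mean in control cortex, with points for the mean of 4 libraries and bars from the lowest to the highest library. Efnb3 leads both tissues (195 and 239 TPM), and Robo3, Ephb6 and Sema7a stand far lower in the libraries labelled striatum than in the cortex.

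The tissues were first compared in controls with edgeR's quasi-likelihood test, fitted on all genes, and a gene was called at a Benjamini-Hochberg adjusted p under 0.05. Of the 71 genes, 44 were called, 17 higher and 27 lower in the libraries labelled striatum, where 40.4% of all genes tested were called, 20.3% higher and 20.1% lower. The 4 control striata lay entirely above or below the 4 control cortices for 37 of the 71 genes, against 38.7% of all genes tested. The median log2 fold change of the 71 genes was -0.07 and that of all genes 0.009. In the Trrap-FBΔ mice 57 genes were called, 29 higher and 28 lower (54.7%, 27.4% and 27.4% of all genes), and 52 did not overlap (50.5% of all genes). Called in both genotypes with the same direction were 16 genes higher and 23 lower in the striatum, and 0 genes changed direction. The same count was not made over all genes tested, so it is not read as a trait of the 71 genes. Without the 3 control libraries set apart by their markers, 10 genes were higher and 22 lower in controls.

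Among receptors, the EphB family had 3 of 5 members lower in the control striatum and 0 higher, at a median log2 fold change of -0.89. Ephb6 was at 111, 120, 133 and 126 CPM in control cortices and at 35.3, 34.1, 41.2 and 35.3 CPM in control striata. Every striatum lay below every cortex, at a log2 fold change of -1.74 (standard error 0.076, edgeR adjusted p = 2e-06). Ephb3, a receptor of ephrin-Bs, went from 32.3, 34.0, 33.7 and 35.6 CPM to 17.9, 14.1, 16.9 and 16.6 CPM, again without overlap (log2 fold change -1.05, standard error 0.078, edgeR adjusted p = 9e-06). The EphA family was mixed, with 2 members higher, 3 lower and 4 not called. Epha4, which binds ephrins of both classes, was at 296, 296, 337 and 352 CPM in control cortices and 117, 130, 145 and 130 CPM in control striata (log2 fold change -1.29, standard error 0.080, edgeR adjusted p = 3.7e-06). Opposite in direction were Epha10, at 31.6, 33.4, 28.2 and 30.2 CPM in cortices and 72.1, 49.3, 60.02 and 67.0 CPM in striata (log2 fold change 1.01, standard error 0.11, edgeR adjusted p = 6.6e-05), and Epha1. The latter was barely counted in control cortices (0.585, 0.686, 0.182 and 0.284 CPM) and was at 2.49, 3.23, 2.18 and 2.93 CPM in control striata, a log2 fold change of 2.65 (standard error 0.31, edgeR adjusted p = 0.0001). None of these groups overlapped.

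Robo3, a divergent member of the Slit receptor family best known from commissural axons, had the largest fall of all 71 genes. Its level was 60.3, 84.7, 84.95 and 86.3 CPM in control cortices and 11.7, 23.7, 16.5 and 10.4 CPM in control striata, a 5.06-fold fall (log2 fold change -2.34, standard error 0.23, edgeR adjusted p = 3.3e-05). The cortex of mouse 55 was the low one of its group, yet stood above all striata. In the Trrap-FBΔ mice the tissues differed by -2.26 on the same log2 scale (edgeR adjusted p = 1.1e-08). Robo2 was lower too (-0.80, edgeR adjusted p = 2.8e-05), Robo1 was higher (0.27, edgeR adjusted p = 0.017), and Robo4, the endothelial member, was not called (-0.11, edgeR adjusted p = 0.50). The call of Robo1 was lost without the cortex of mouse 63 (adjusted p = 0.055), without the striatum of mouse 65 (0.051) and without the 3 libraries named above (0.14).

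Of the 4 A plexins, the co-receptors of class 3 semaphorins, 3 were lower in the control striatum, 0 higher and 1 not called. All 3 B plexins were higher. Plxnb3 was at 20.3, 28.8, 23.4 and 18.5 CPM in control cortices and 62.7, 30.3, 38.7 and 50.6 CPM in control striata (log2 fold change 1.004, standard error 0.21, edgeR adjusted p = 0.0037). The mature oligodendrocyte markers summed to 8745, 2891, 4024 and 6430 CPM in the same striata, which is the order of the Plxnb3 values, and their part in this difference was not tested. The rises of Plxnb1 and Plxnb2 were smaller (0.22 and 0.26, edgeR adjusted p = 0.023 and 0.0089) and were not called without the 3 libraries named above (edgeR adjusted p = 0.21 and 0.12). The call of Plxnb1 was also lost without control striatum 58 or 64 or control cortex 63 or 64 (adjusted p between 0.051 and 0.064). Plxnd1, the receptor of Sema3e, was lower in striata at 86.7, 70.8, 110 and 68.9 CPM than in cortices at 183, 190, 150 and 180 CPM (log2 fold change -1.06, standard error 0.14, edgeR adjusted p = 0.0002). Nrp2, the co-receptor of Sema3c and Sema3f, was higher, at 118, 114, 124 and 132 CPM against 60.3, 63.98, 32.9 and 69.2 CPM (log2 fold change 1.11, standard error 0.18, edgeR adjusted p = 0.00081).

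Of the ligands, the netrins Ntng1 and Ntn1 had the largest rises. Ntng1, a GPI-anchored netrin-G that is abundant in thalamic axons, was at 38.3, 37.8, 21.1 and 31.2 CPM in control cortices and at 108, 84.2, 75.2 and 109 CPM in control striata (log2 fold change 1.55, standard error 0.19, edgeR adjusted p = 0.00011). The thalamic genes named above summed to 435, 358.5, 320 and 532.5 CPM in these striata, so that the highest and the lowest library were the same for both. The secreted netrin Ntn1 was at 13.8, 21.7, 16.2 and 13.9 CPM in cortices and 37.1, 29.0, 45.8 and 41.0 CPM in striata (log2 fold change 1.22, standard error 0.17, edgeR adjusted p = 0.00028). Ntng2 went the other way (-0.90, edgeR adjusted p = 2.2e-05), and 14.0% of its exon bases lie under another gene of the same strand. Among semaphorins, 4 were higher, 7 lower and 9 not called. Sema7a, the semaphorin of highest TPM in the cortex, was at 141, 158, 188 and 164 CPM in cortices and 53.8, 51.9, 63.5 and 56.3 CPM in striata (log2 fold change -1.53, standard error 0.0915, edgeR adjusted p = 3.6e-06), with no overlap for any of these genes. None of the 5 ephrin-As was higher and 3 were lower.

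The genotypes were then compared within each tissue. These comparisons use the same libraries as those between tissues, and the cortical and striatal ones share animals. In the cortex 31 of the 71 genes were called, 3 higher and 28 lower in Trrap-FBΔ, whereas 33.3% of all genes tested were called, 15.7% higher and 17.6% lower. The lower calls were thus 39.4% of the 71 genes. The 4 Trrap-FBΔ cortices lay entirely on 1 side of the 4 control cortices for 21 of the 71 genes (29.6%), close to the 32.7% of all genes tested. The changes were small, with a median log2 fold change of -0.13 against 0.001 for all genes, 54 of 71 genes below 0, and 1 gene changed by more than 2-fold.

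**Figure D2:**
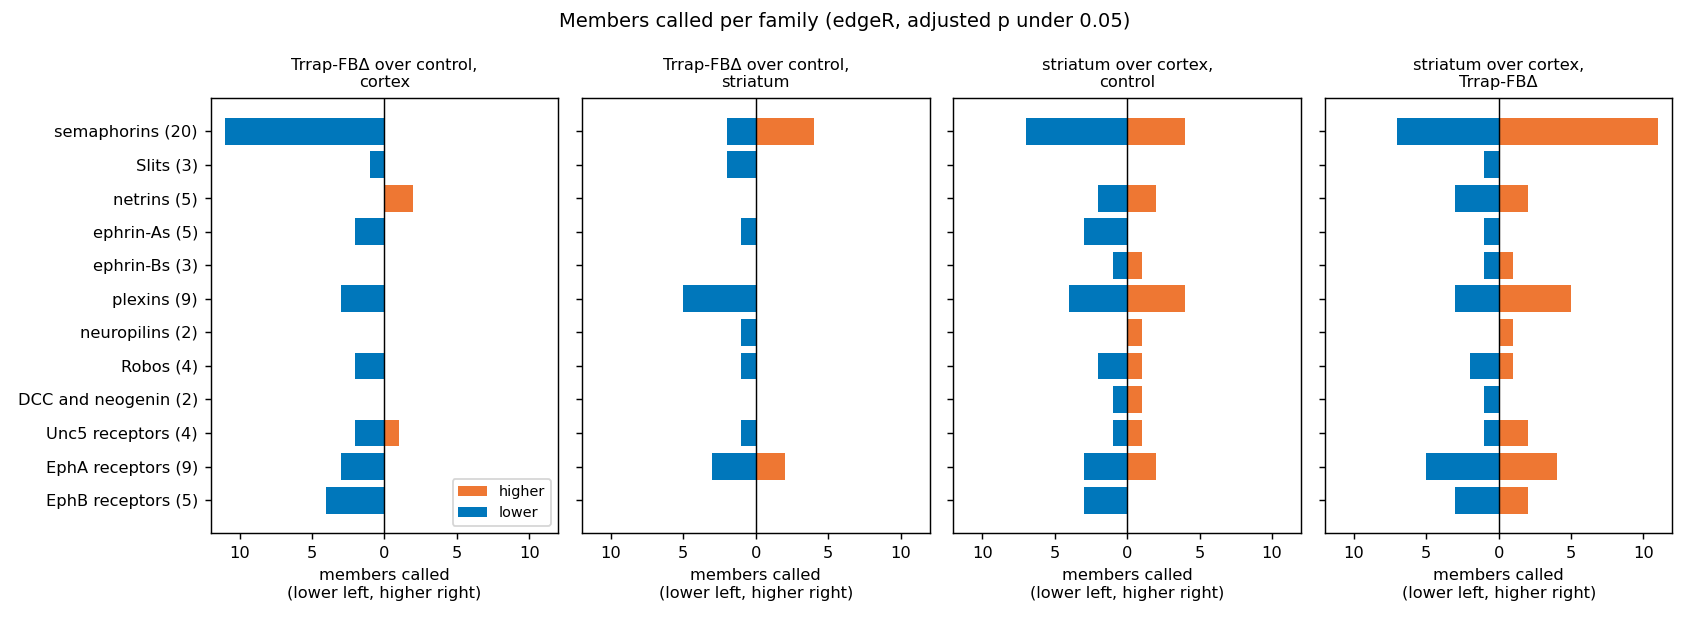
Number of members of each family called higher (right) or lower (left) in 4 comparisons, with the size of the family in brackets. In the cortex of Trrap-FBΔ mice 11 of the 20 semaphorins were lower and 0 higher, and in the striatum 2 were lower and 4 higher. Over all genes tested, 17.6% were lower and 15.7% higher in the cortex, and 15.8% and 14.4% in the striatum. The direct test of a difference between the tissues called 0 of the 20 semaphorins.

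The cortical falls came from both sides, with 14 of 36 ligands and 14 of 35 receptors lower. Of the 20 semaphorins 11 were lower and 0 higher (Sema3a, Sema3c, Sema3d, Sema3e, Sema4c, Sema4f, Sema4g, Sema6a, Sema6c, Sema6d and Sema7a), at log2 fold changes between -0.51 and -0.16. Besides that of Sema3e, 4 of these calls were lost when 1 library was left out. They were Sema3c (any of control cortices 55, 63 and 64 and Trrap-FBΔ cortices 59, 60 and 61, adjusted p between 0.054 and 0.071), Sema3d (control 55, 58 or 63 or Trrap-FBΔ 57, 60 or 61, between 0.056 and 0.099), Sema4f (control 55, 63 or 64 or Trrap-FBΔ 57, 59 or 60, between 0.056 and 0.093) and Sema7a (control 63 or 64 or Trrap-FBΔ 59 or 60, between 0.055 and 0.084). The transmembrane class 6, which acts through A plexins, had 3 of 4 members lower. Sema6a was at 96.9, 102, 78.1 and 82.0 CPM in controls and 56.9, 66.8, 61.2 and 67.6 CPM in Trrap-FBΔ cortices, with no overlap (log2 fold change -0.51, standard error 0.087, edgeR adjusted p = 0.0012). Sema6c followed with 59.2, 56.7, 55.5 and 60.9 CPM against 44.4, 36.7, 39.2 and 47.9 CPM, also without overlap (-0.46, standard error 0.076, edgeR adjusted p = 0.00098). Of the EphB receptors 4 of 5 were lower (Ephb1, Ephb2, Ephb4 and Ephb6, between -0.37 and -0.21) and Ephb3 was at -0.04 (edgeR adjusted p = 0.68). Ephb6 was at 102, 83.9, 89.8 and 104 CPM in Trrap-FBΔ cortices and thus below all controls (-0.37, standard error 0.075, edgeR adjusted p = 0.0033). Leaving out 1 library ended the call of Ephb2 (Trrap-FBΔ cortex 60 or control cortex 64, adjusted p = 0.053 and 0.051) and of Ephb4 (control cortex 58 or 64 or Trrap-FBΔ cortex 59 or 61, adjusted p between 0.054 and 0.072), and the call of Ephb1 was lost without control cortices 58 and 63 (0.098). The EphA receptors had 3 of 9 lower, the plexins 3 of 9, the Robos 2 of 4 and the ephrin-As 2 of 5, with 0 higher in each. Among these, Epha10 lost its call without control cortex 55, 58 or 64 or Trrap-FBΔ cortex 57, 59 or 60 (adjusted p between 0.075 and 0.15). Plxnb3 lost it without control cortex 58 or 63 or Trrap-FBΔ cortex 59, 60 or 61 (between 0.061 and 0.093). Epha8 was at 0.061 without control cortices 58 and 63. The neuropilins, the ephrin-Bs and the DCC and neogenin family had no call. Leaving out 1 library gave between 18 and 25 lower calls, the 18 without the Trrap-FBΔ cortex of mouse 60, and without the control cortices of mice 58 and 63 there were 20 lower and 1 higher.

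The 3 genes called higher in the cortex were Ntn5, Ntng2 and Unc5a. Ntn5 was barely counted, at 0.402, 0.379, 0.364 and 0.465 CPM in controls and 0.944, 1.15, 1.04 and 1.25 CPM in Trrap-FBΔ cortices, a 2.72-fold rise (log2 fold change 1.44, standard error 0.19, edgeR adjusted p = 0.00024). The groups did not overlap. On the other strand, 23.4% of the exon bases of Ntn5 lie under Sec1. Reads were counted by strand, and whether reads of Sec1 entered the Ntn5 counts was not tested. In the striatum Ntn5 had a log2 fold change of 0.57 that was not called (edgeR adjusted p = 0.27). Ntng2, the netrin-G with the overlapping gene, was higher by 0.20 (edgeR adjusted p = 0.015) and the netrin receptor Unc5a by 0.26 (edgeR adjusted p = 0.028). Neither was called without the control cortices of mice 58 and 63 (adjusted p = 0.13 and 0.18), and Unc5a also lost its call when control cortex 55, 58 or 63 or Trrap-FBΔ cortex 59 or 61 was left out (adjusted p between 0.067 and 0.072).

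In the libraries labelled striatum, 22 of the 71 genes were called, 6 higher and 16 lower in Trrap-FBΔ, beside 30.2% of all genes tested, 14.4% higher and 15.8% lower. The lower calls were 22.5% of the 71 genes, and 21 of the 71 genes did not overlap between groups (31.6% of all genes tested). The median log2 fold change was -0.12, and -0.006 over all genes. Receptors made up 11 of the 16 lower calls and ligands 5. Of the plexins 5 of 9 were lower and 0 higher (Plxna2, Plxna3, Plxna4, Plxnc1 and Plxnd1, between -0.78 and -0.21), among them 3 of the 4 A plexins. The semaphorins had 2 lower (Sema3a and Sema3e) and 4 higher (Sema3b, Sema3f, Sema4a and Sema6b). Of the Slits, Slit2 and Slit3 were lower (-0.38 and -0.58, edgeR adjusted p = 0.013 and 0.0076), and of the EphA receptors 3 were lower (Epha4, Epha5 and Epha6) and 2 higher (Epha1 and Epha8). The call of Plxna2 was lost without control striatum 64 or any 1 of the 4 Trrap-FBΔ striata (adjusted p between 0.053 and 0.1) and with sex as a covariate (0.13), and that of Epha4 without control striatum 64 or Trrap-FBΔ striatum 57, 60 or 61 (between 0.05 and 0.062) and with sex as a covariate (0.062). With that covariate Sema6b was at 0.051. None of the EphB receptors, netrins or ephrin-Bs was called. Nrp2 was lower, with 94.2, 84.97, 104 and 91.7 CPM in Trrap-FBΔ striata below the 118, 114, 124 and 132 CPM of controls (-0.38, standard error 0.067, edgeR adjusted p = 0.0026), a call that was lost in the fit over all 16 libraries (0.14).

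**Figure D3:**
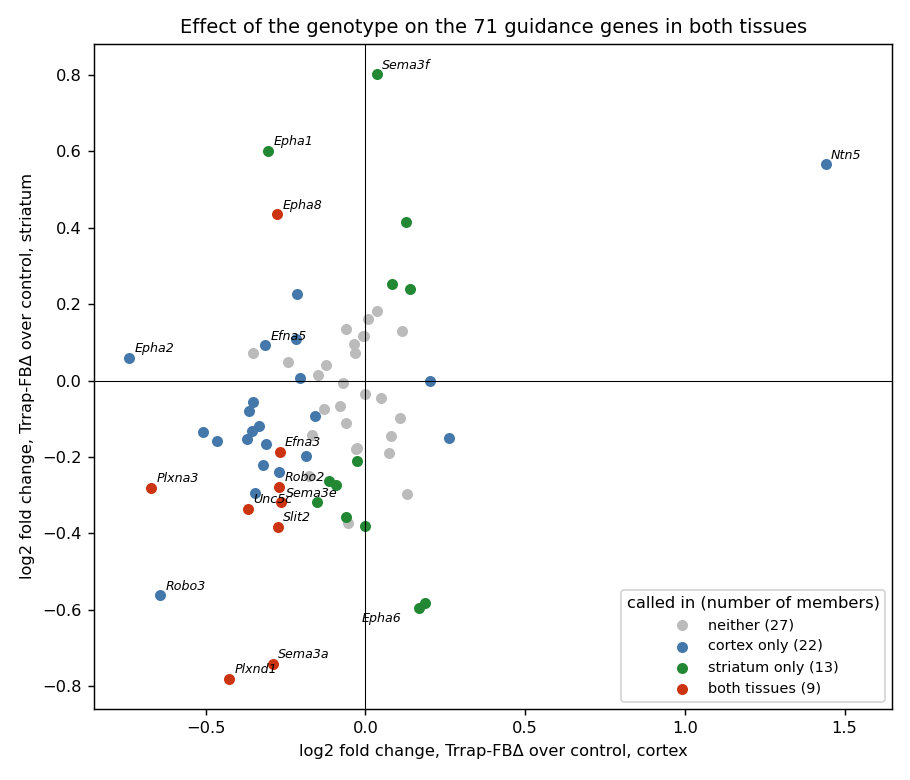
Log2 fold change of Trrap-FBΔ over control in the cortex (x axis) and in the striatum (y axis) for the 71 genes, coloured by the tissue in which a gene was called. The 8 genes called lower in both tissues lie in the lower left, Epha8 is the 1 gene called in both with opposite signs, and no gene was called higher in both.

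Called in both tissues were 9 of the 71 genes (12.7%), while 19.2% of the 17938 genes tested in both were. Lower in both were 8 genes (11.3%, beside 10.5% of all genes), higher in both 0, and opposite 1. A further 22 genes were called in the cortex only, 13 in the striatum only and 27 in neither. Irrespective of calls, 46 of 71 genes (64.8%) had the same sign in both tissues, below the 77.8% of all genes. Since most mice gave both tissues, the signs of a gene in the 2 tissues are not independent.

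The 8 genes lower in both tissues were the ligands Sema3a, Sema3e, Slit2 and Efna3 and the receptors Plxnd1, Plxna3, Unc5c and Robo2. Their promoter sequences are shown where the start of the RefSeq transcript equals the 5′ end of the gene in the GENCODE annotation, together with those of Epha8 and Efna5, the genes whose genotype effect differed between tissues. The study links Trrap to the transcription factor Sp1, which binds GC boxes. The 250 bases before the start are therefore given with each GC box (GGGCGG, or CCGCCC on the other strand) in capitals, 5′ to 3′ on the strand of the gene, from RefSeq on build GRCm38.p6.
Plxnd1 (chr6:115995006-115995255, minus strand): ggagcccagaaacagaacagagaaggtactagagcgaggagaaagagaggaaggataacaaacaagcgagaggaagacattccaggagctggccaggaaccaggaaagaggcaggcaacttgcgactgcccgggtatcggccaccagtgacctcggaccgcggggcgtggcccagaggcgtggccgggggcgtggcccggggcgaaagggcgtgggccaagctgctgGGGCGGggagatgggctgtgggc
Plxna3 (chrX:74328816-74329065, plus strand): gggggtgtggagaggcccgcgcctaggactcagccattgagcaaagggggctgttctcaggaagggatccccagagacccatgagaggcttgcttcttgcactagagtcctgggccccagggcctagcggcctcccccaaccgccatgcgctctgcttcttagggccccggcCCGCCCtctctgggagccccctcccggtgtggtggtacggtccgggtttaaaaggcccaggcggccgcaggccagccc
Sema3e (chr5:14025026-14025275, plus strand): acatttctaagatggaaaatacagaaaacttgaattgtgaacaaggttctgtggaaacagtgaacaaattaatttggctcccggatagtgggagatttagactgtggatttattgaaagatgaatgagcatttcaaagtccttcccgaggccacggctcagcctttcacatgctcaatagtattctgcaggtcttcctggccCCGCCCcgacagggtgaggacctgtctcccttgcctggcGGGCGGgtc
Robo2 (chr16:74411826-74412075, minus strand): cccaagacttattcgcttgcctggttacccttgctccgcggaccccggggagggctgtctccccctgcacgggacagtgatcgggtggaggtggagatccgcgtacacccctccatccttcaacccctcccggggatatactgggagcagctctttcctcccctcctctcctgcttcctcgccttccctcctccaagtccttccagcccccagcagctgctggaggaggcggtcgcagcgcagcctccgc
Epha8 (chr4:136956817-136957066, minus strand): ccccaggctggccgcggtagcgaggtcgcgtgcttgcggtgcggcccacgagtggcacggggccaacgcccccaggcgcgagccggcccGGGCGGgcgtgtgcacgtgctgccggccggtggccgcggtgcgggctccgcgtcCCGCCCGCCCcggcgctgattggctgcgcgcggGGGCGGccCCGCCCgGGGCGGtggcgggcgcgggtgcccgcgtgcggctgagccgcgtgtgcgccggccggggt
Efna5 (chr17:62881318-62881567, minus strand): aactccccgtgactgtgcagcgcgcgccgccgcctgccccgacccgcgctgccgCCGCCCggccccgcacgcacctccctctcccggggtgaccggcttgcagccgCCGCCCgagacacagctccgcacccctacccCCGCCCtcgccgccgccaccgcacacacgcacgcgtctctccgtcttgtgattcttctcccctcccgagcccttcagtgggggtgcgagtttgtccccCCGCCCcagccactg

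Counting overlapping matches separately, these windows held 1 GC box in Plxnd1, 1 in Plxna3, 2 in Sema3e, 0 in Robo2, 6 in Epha8 and 4 in Efna5, at a GC content between 48.0% (Sema3e) and 84.0% (Epha8). The promoter table matched 61 of the 71 genes. At least 1 GC box stood in a window of 45 of these 61 genes (73.8%), of 47.5% of 16507 protein-coding genes and of 35.4% of all 27025 genes with a window. The median GC content of the windows was 64.8% for the 61 genes and 56.0% for protein-coding genes. Within the 71, the box was found in 5 of the 8 genes lower in both tissues, in 26 of 34 genes lower in at least 1 tissue and in 15 of 21 genes called in neither (71.4%). A match in these letters is a description of the window and not a binding site.

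Plxnd1 (ENSMUSG00000030123, chromosome 6 of GRCm38, 115954811 to 115995005), the semaphorin receptor known from blood vessels, thalamocortical and striatal connections, had the largest mean fall. It was at 183, 190, 150 and 180 CPM in control cortices and 118, 131, 129 and 144 CPM in Trrap-FBΔ cortices, and at 86.7, 70.8, 110 and 68.9 CPM in control striata and 57.8, 43.9, 44.8 and 49.0 CPM in Trrap-FBΔ striata. No Trrap-FBΔ library reached the lowest control of its tissue. The fall was 1.34-fold in the cortex (log2 fold change -0.43, standard error 0.077, edgeR adjusted p = 0.0017) and 1.72-fold in the striatum (-0.78, standard error 0.14, edgeR adjusted p = 0.0032). Its ligand Sema3e (ENSMUSG00000063531, chromosome 5, 14025276 to 14256689) was at 35.3, 42.2, 47.2 and 47.3 CPM in control cortices and 33.5, 37.7, 36.6 and 35.6 CPM in Trrap-FBΔ cortices, where control mouse 55 lay inside the Trrap-FBΔ range (-0.27, standard error 0.086, edgeR adjusted p = 0.033). This cortical call was lost in every fit that left out 1 library except that without mouse 55 (adjusted p between 0.051 and 0.093) without the control cortices of mice 58 and 63 (0.17) and with sex as a covariate (0.06). In the striatum Sema3e was at 35.4, 36.5, 39.4 and 39.4 CPM in controls and 30.5, 29.6, 30.2 and 30.6 CPM in Trrap-FBΔ, with no overlap (-0.32, standard error 0.052, edgeR adjusted p = 0.0017).

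Sema3a (ENSMUSG00000028883, chromosome 5, 13125414 to 13602565), the prototypic repellent of class 3, and Plxna3 (ENSMUSG00000031398, chromosome X, 74329066 to 74344689), an A plexin that transduces class 3 signals, followed. Sema3a was at 41.0, 44.8, 44.8 and 38.3 CPM in control cortices and 32.9, 34.5, 36.6 and 34.3 CPM in Trrap-FBΔ cortices (-0.29, standard error 0.064, edgeR adjusted p = 0.0052). Its striatal values were 30.0, 29.3, 36.7 and 27.8 CPM in controls and 18.3, 15.6, 19.5 and 20.5 CPM in Trrap-FBΔ, a 1.67-fold fall (-0.74, standard error 0.10, edgeR adjusted p = 0.00081). The groups were apart in both tissues. For Plxna3 the larger fall was the cortical one, from 95.8, 86.8, 74.1 and 88.0 to 49.8, 53.3, 50.8 and 62.4 CPM (1.59-fold, -0.67, standard error 0.085, edgeR adjusted p = 0.00021). The striatal values of Plxna3 went from 82.3, 82.8, 79.5 and 74.9 to 68.0, 62.0, 62.2 and 70.9 CPM (-0.28, standard error 0.057, edgeR adjusted p = 0.0051), again without overlap. The difference between the tissues was not called for either gene (edgeR adjusted p = 0.12 and 0.13). Without the control cortices of mice 58 and 63, the cortical adjusted p of Sema3a was 0.072.

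Of the remaining receptors lower in both tissues, the repulsive netrin receptor Unc5c (ENSMUSG00000059921, chromosome 3, 141465216 to 141834924) was at 62.7, 58.1, 53.6 and 61.2 CPM in control cortices and 40.9, 48.0, 46.2 and 47.5 CPM in Trrap-FBΔ cortices (-0.37, standard error 0.065, edgeR adjusted p = 0.0015). In striata it was at 66.5, 52.5, 51.8 and 65.4 against 43.0, 48.5, 45.8 and 49.95 CPM (-0.34, standard error 0.091, edgeR adjusted p = 0.019). Both differences came without overlap, and the striatal call was lost without Trrap-FBΔ mouse 57 (adjusted p = 0.059) and with sex as a covariate (0.086). Robo2 (ENSMUSG00000052516, chromosome 16, 73891839 to 74411825), a Slit receptor of cortical and thalamic axons, was at 320, 313, 310 and 294 CPM in control cortices and 235, 268, 265 and 258 CPM in Trrap-FBΔ cortices (-0.27, standard error 0.055, edgeR adjusted p = 0.0032). Its striatal levels were 162, 171, 206 and 168 CPM against 153, 151, 133 and 147 CPM (-0.28, standard error 0.078, edgeR adjusted p = 0.022). The groups were again apart, although the striatal adjusted p rose to 0.066 without Trrap-FBΔ mouse 60.

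Slit2 (ENSMUSG00000031558, chromosome 5, 47983138 to 48307733), a Robo ligand, and Efna3 (ENSMUSG00000028039, chromosome 3, 89313899 to 89322965), a GPI-anchored ephrin, were the other ligands called lower in both tissues. Slit2 was at 56.3, 56.9, 52.2 and 64.1 CPM in control cortices and 40.0, 53.3, 46.6 and 49.9 CPM in Trrap-FBΔ cortices, where the highest Trrap-FBΔ library passed the lowest control (-0.28, standard error 0.0855, edgeR adjusted p = 0.028). This call was lost without Trrap-FBΔ cortex 57 or 60 or control cortex 64 (adjusted p = 0.06, 0.07 and 0.08), and with sex as a covariate (0.056). In striata Slit2 was at 76.4, 59.6, 57.7 and 74.9 against 48.0, 53.0, 54.7 and 50.2 CPM, with no overlap (-0.38, standard error 0.0945, edgeR adjusted p = 0.013), and with sex as a covariate the adjusted p was 0.063. Efna3 was at 50.9, 48.3, 50.5 and 53.9 against 43.3, 38.5, 42.1 and 45.0 CPM in the cortex (-0.27, standard error 0.058, edgeR adjusted p = 0.0047). Its striatal levels, 36.6, 39.3, 37.4 and 34.9 against 34.3, 30.3, 32.8 and 32.9 CPM, were close but apart (-0.19, standard error 0.058, edgeR adjusted p = 0.033), and this call was lost without any 1 of the striata of Trrap-FBΔ mice 59, 60 and 61 and control mice 58, 63 and 64 (adjusted p of 0.055 to 0.088).

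**Figure D4:**
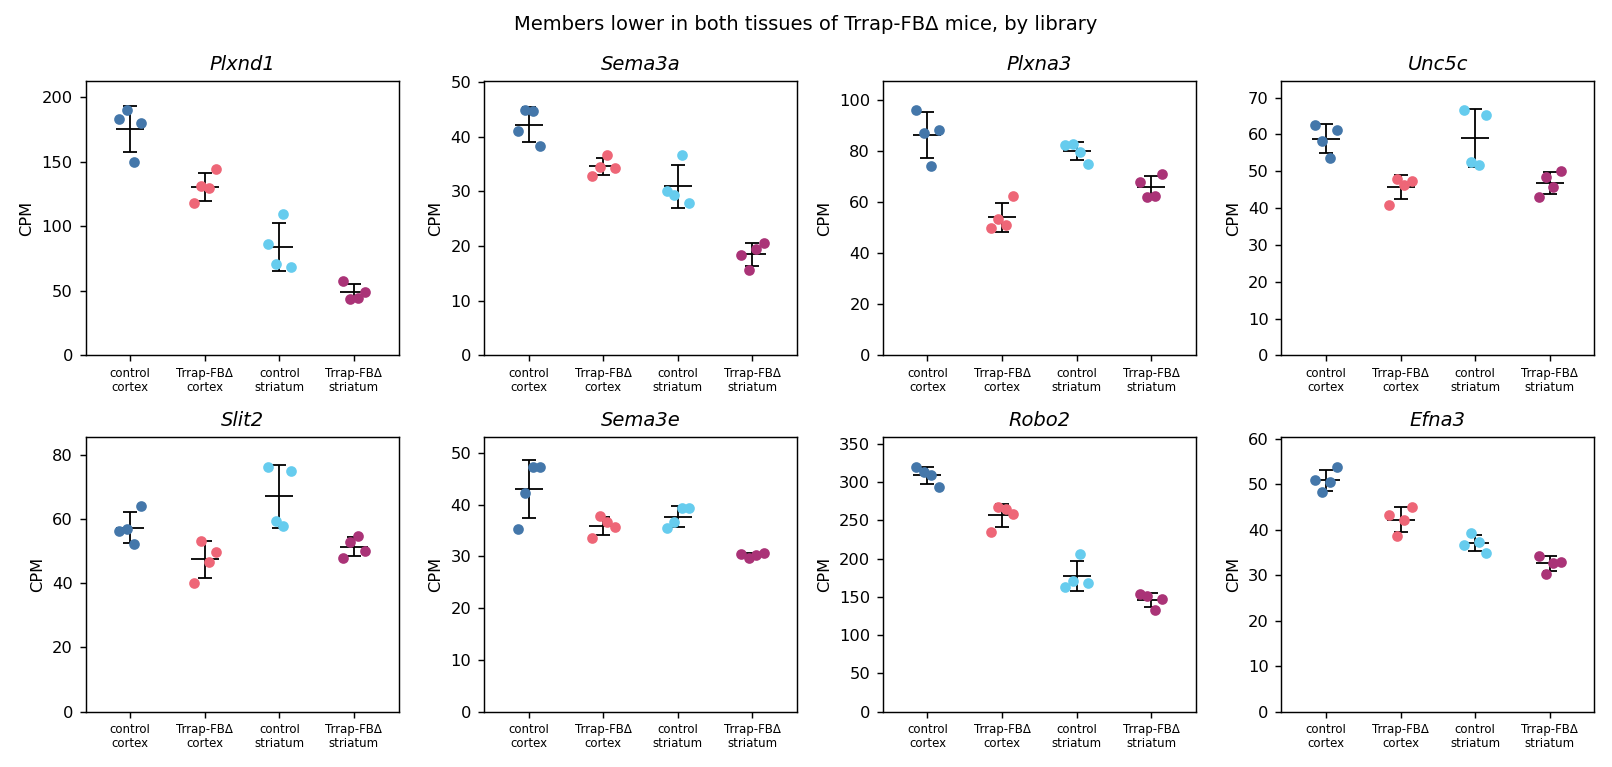
CPM of the 8 genes lower in both tissues of Trrap-FBΔ mice, with a point per library, and the mean (long line) and SD (error bar) of the 4 libraries of a group. Plxnd1 fell from 176 to 131 CPM on average in cortical libraries and from 84.0 to 48.9 CPM in striatal ones, and the groups of Sema3e and Slit2 overlap in the cortex.

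Among genes called in the cortex only, Epha2 and Robo3 had the largest falls. Epha2, an ephrin-A receptor of epithelial and vascular cells, was at 2.60, 2.25, 1.90 and 1.71 CPM in control cortices and 1.32, 1.17, 1.07 and 1.44 CPM in Trrap-FBΔ cortices, a 1.67-fold fall without overlap (-0.74, standard error 0.17, edgeR adjusted p = 0.0061). In striata it was at 1.83, 1.48, 1.92 and 1.91 against 1.82, 1.69, 1.63 and 2.27 CPM (0.06, edgeR adjusted p = 0.79), and the difference between tissues was not called (0.80, standard error 0.22, edgeR adjusted p = 0.12). Robo3 was at 60.3, 84.7, 84.95 and 86.3 CPM in control cortices and 58.1, 48.9, 45.0 and 50.9 CPM in Trrap-FBΔ cortices (-0.64, standard error 0.11, edgeR adjusted p = 0.0011), with control mouse 55 just above Trrap-FBΔ mouse 57. The striatal change of Robo3 was of like size (-0.56, standard error 0.23) and did not pass the threshold (edgeR adjusted p = 0.091), but did so in 4 other settings, among them the fit over all 16 libraries (0.042) and that without control mouse 65 (0.034).

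The genes called in the striatum only included Sema3f, a Nrp2 ligand, which had the largest striatal rise. It was at 15.4, 14.2, 20.6 and 18.5 CPM in control striata and 33.7, 28.3, 25.1 and 32.8 CPM in Trrap-FBΔ striata, with all Trrap-FBΔ libraries above all controls (1.74-fold, log2 fold change 0.80, standard error 0.13, edgeR adjusted p = 0.0015). In the cortex it was at 14.0, 16.5, 15.1 and 12.9 against 14.7, 13.7, 14.8 and 16.8 CPM (0.04, edgeR adjusted p = 0.78), and the difference between tissues had an adjusted p of 0.056 by edgeR. Epha1 rose from 2.49, 3.23, 2.18 and 2.93 to 3.69, 4.67, 4.00 and 4.16 CPM in the striatum, without overlap (0.60, standard error 0.135, edgeR adjusted p = 0.0081). Epha6, an EphA receptor, fell from 16.7, 27.0, 21.7 and 20.0 to 14.4, 14.5, 14.9 and 12.8 CPM in the striatum (-0.60, standard error 0.13, edgeR adjusted p = 0.0062), again apart. Its cortical values were 22.4, 19.0, 21.2 and 26.9 CPM in controls and 19.7, 27.4, 27.5 and 26.2 CPM in Trrap-FBΔ (0.17, edgeR adjusted p = 0.31). The difference between tissues was not called for Epha1 or Epha6 (edgeR adjusted p = 0.35 and 0.083).

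A direct test over all 16 libraries compared the genotype effect of the striatum with that of the cortex, and 2 of the 71 genes were called, where 0.437% of all genes tested were (85 of 19438). It called 0 of the 20 semaphorins, 0 of the 9 plexins and 0 of the 5 EphB receptors. Epha8, a receptor of ephrin-As, changed in opposite directions. Cortical levels fell from 28.3, 29.2, 27.4 and 26.5 to 22.4, 22.4, 21.5 and 25.7 CPM (-0.28, standard error 0.066, edgeR adjusted p = 0.0082), and striatal ones rose from 28.1, 27.9, 35.7 and 33.9 to 44.0, 42.4, 36.6 and 47.1 CPM (0.44, standard error 0.099, edgeR adjusted p = 0.0088), without overlap in either tissue. The change was higher in the striatum by 0.71 on the log2 scale (standard error 0.13, edgeR adjusted p = 0.021). Efna5, a ligand of EphA receptors that patterns cortical and thalamic maps, fell in the cortex from 37.5, 36.2, 35.8 and 35.2 to 26.9, 29.0, 29.7 and 30.8 CPM (-0.31, standard error 0.056, edgeR adjusted p = 0.0016), with the groups apart. In striata it was at 29.9, 25.5, 25.9 and 30.1 against 28.7, 30.5, 29.2 and 30.3 CPM (0.09, edgeR adjusted p = 0.32), and the difference was 0.41 (standard error 0.085, edgeR adjusted p = 0.046). Without the 3 libraries set apart by their markers neither difference was called (edgeR adjusted p = 0.094 and 0.091). That fit held fewer controls, and the part of the smaller groups in the lost calls was not tested. Over the alternative fits the difference ranged from 0.642 to 0.779 for Epha8 and from 0.37 to 0.451 for Efna5. Epha8 also lost its call without control cortex 58, Trrap-FBΔ cortex 59 or 60, or Trrap-FBΔ striatum 59 or 61 (adjusted p between 0.055 and 0.06), and Efna5 when any 1 of 13 libraries was left out (adjusted p between 0.054 and 0.13). With DESeq2, 7 of the 71 genes were called for the difference. The share of all genes called by DESeq2 is not given here, so this count has no background beside it.

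**Figure D5:**
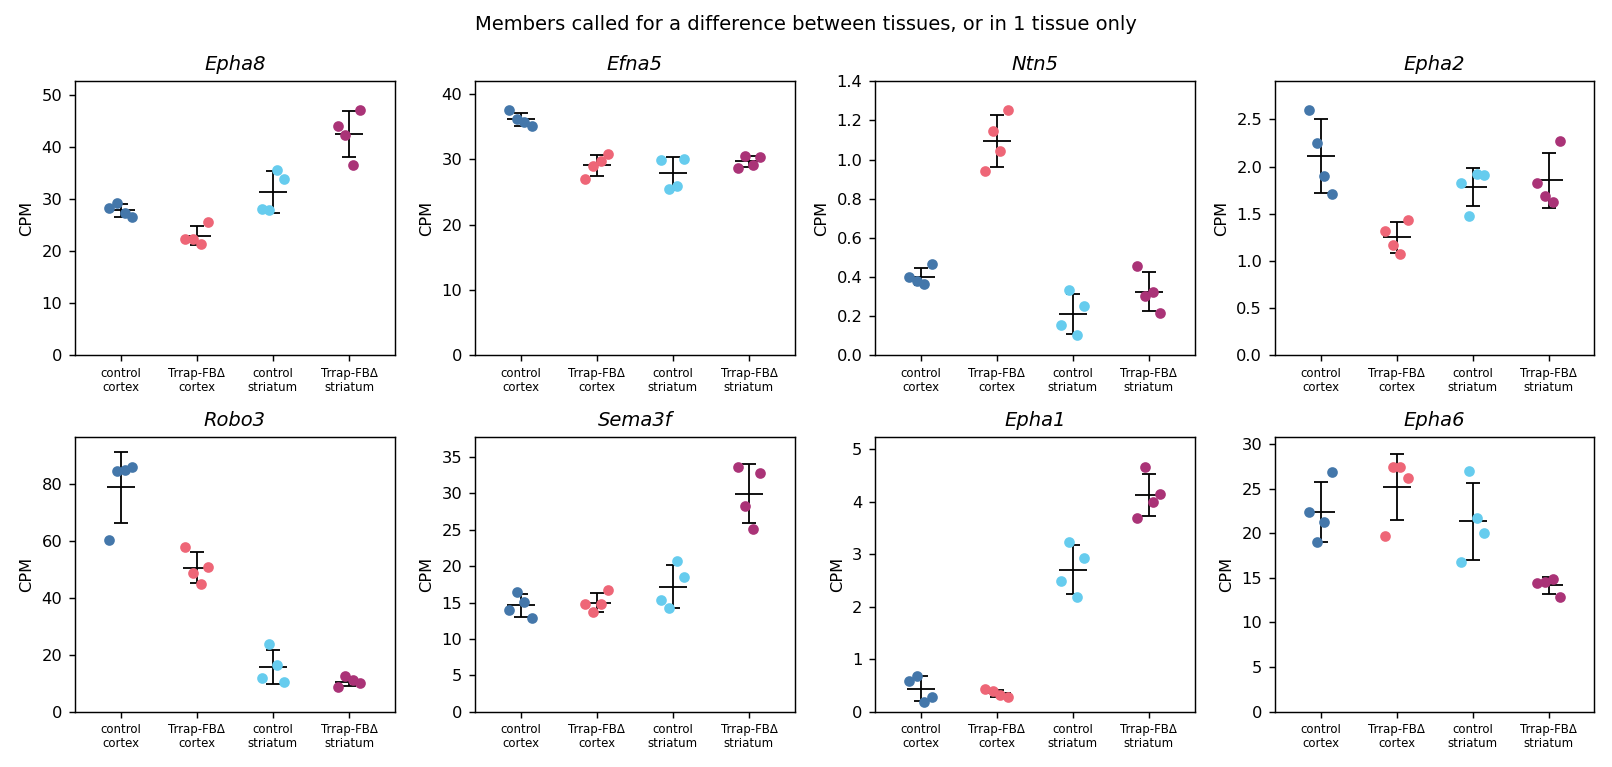
CPM of Epha8 and Efna5, the genes called for a difference of the genotype effect between tissues, and of the 6 genes with the largest changes called in 1 tissue only, with a point per library, and the mean (long line) and SD (error bar) of each group of 4. Epha8 falls in the cortex (27.9 to 23.0 CPM on average) and rises in the striatum (31.4 to 42.5 CPM).

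Genes that act beside these ligands and receptors were described from 2 lists. Of 20 further cues, co-receptors and sheddases, 2 were higher and 7 lower in the cortex of Trrap-FBΔ mice, and 2 higher and 12 lower in the striatum, with median log2 fold changes of -0.10 and -0.23. Of all genes tested 15.7% were higher and 17.6% lower in the cortex, and 14.4% and 15.8% in the striatum. The neural cell adhesion molecule L1cam, a partner of neuropilin-1, was lower in both (-0.83 and -0.48, edgeR adjusted p = 0.00032 and 0.0017), as was the adhesion molecule Cntn2 (-0.57 and -0.38, edgeR adjusted p = 0.00013 and 0.018). Gpc1, a heparan sulphate proteoglycan that binds Slits, fell by 0.63 and 0.37 on the log2 scale (edgeR adjusted p = 4.6e-05 and 0.00062), and the receptor tyrosine kinase Met fell by 0.69 and 1.24 (edgeR adjusted p = 0.0011 and 0.003). Flrt1 and Ptk7 were the 2 higher genes in both tissues. Of 44 intracellular effectors, 3 were higher and 22 lower in the cortex, and 0 higher and 13 lower in the striatum (medians -0.14 in both). The shares over all genes tested are those just given. Srgap1 and Srgap2, GTPase-activating proteins downstream of Robo, were lower in both tissues (-0.71 and -0.54 in the cortex, -0.41 and -0.38 in the striatum, edgeR adjusted p = 0.00013, 9.5e-05, 0.0057 and 0.002), and the actin-binding protein Ablim3 was lower by 0.78 in the cortex. No gene of either list was called for a difference between the tissues.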

How the data were processed

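RNA sequencing counts of 16 libraries were taken as deposited by the authors. They had demultiplexed single-end reads of a stranded mRNA library with bcl2fastq 1.8.4, aligned them with STAR 2.5.4b to GRCm38 and Ensembl release 92, and counted uniquely mapped reads per gene and strand with featureCounts 1.5.0. Symbols, lengths and coordinates came from GENCODE M21 (53706 of 53801 identifiers matched). The genes and lists were chosen with earlier results of these data known. Genes passing filterByExpr were tested with edgeR 4.0.16 (R 4.3.3, limma 3.58.1): TMM scaling, quasi-likelihood fit without covariates on the libraries of each comparison, and all 16 libraries for the difference between tissues. P-values were Benjamini-Hochberg adjusted over all genes tested, with calls under 0.05. The script was tested on simulated data. CPM used TMM-scaled library sizes, and TPM the union of exons. Genes named with values were those called in both tissues, those called for the difference, the 3 of largest change called in 1 tissue only, and the 6 of largest change in each direction between control tissues. Slit3, Nrp2 in the striatum, Sema6a, Sema6c, Unc5a, Ntng2, the EphB receptors, Robo1, Robo2 and Robo4 between tissues, Plxnb1, Plxnb2 and the genes of the 2 pathway lists were named outside this rule, after their values were seen. Alternatives were DESeq2 1.42.0, upper-quartile scaling, no filter, sex as a covariate, a fit over all libraries, a test against a fold change of 1.2, the longest transcript, a replicate block and leaving out each library. Same-mouse samples of both tissues correlated in their deviations at r = 0.0247 to 0.303 (7 pairs, 18748 genes, 5 over 0.1), against -0.293 to 0.166 for 25 pairs of different mice, and the mouse number in the labels pairs them. No 2 replicates were duplicates (chi-square over degrees of freedom 7.56 to 40.4 in 24 pairs). Each mouse gave 1 library per tissue, and depth limits genes of few counts such as Ntn5.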

Additional observations from a re-analysis of the deposited data

Results flagged for a closer look

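Single libraries far from the rest of their group were looked for in 100 groups of 4 libraries of 25 named genes, where chance flags about 1 in 20, and 2 were found. Robo3 was at 60.3 CPM in the control cortex of mouse 55, while the other 3 control cortices lay between 84.7 and 86.3 CPM. Epha6 was at 19.7 CPM in the Trrap-FBΔ cortex of mouse 57, while the other 3 lay between 26.2 and 27.5 CPM. The effect of the genotype differed between striatum and cortex for Efna5 by 0.41 and for Epha8 by 0.71 on the log2 scale, by edgeR's quasi-likelihood test of the difference itself with Benjamini-Hochberg adjustment (adjusted p = 0.046 and 0.021). Both differences lost their call without the 3 libraries set apart by their markers (adjusted p = 0.091 and 0.094), a fit that held fewer controls.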

How the results depend on the processing

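The counts of called genes were recomputed under each alternative, and 176 of these counts stayed within 1.5 times the main count while 23 did not. A test against a fold change of 1.2 left 6 genes in the cortex (1 higher, 5 lower) and 3 in the striatum (1 higher, 2 lower), because that test asks for a larger change. Without the 3 libraries set apart by their markers, an alternative chosen after seeing the data and not run for the Trrap-FBΔ tissue comparison, 1 gene was higher in the cortex, 10 were higher in the control striatum and 0 were called for the difference between tissues. That last count of 2 became 7 with DESeq2, 4 without the filter and 1 with sex as a covariate. The shares over all genes in those fits are not given here. Leaving out 1 library gave 21 to 27 calls in the cortex (2 to 4 higher, 18 to 25 lower), 19 to 24 in the striatum (6 to 7 higher, 13 to 18 lower), 36 to 49 between control tissues (13 to 24 higher, 23 to 27 lower), 53 to 57 between Trrap-FBΔ tissues (26 to 29 higher, 27 to 29 lower) and 0 to 3 for the difference. With the mouse as a replicate block, 39 genes were called between control tissues (15 higher, 24 lower), 58 between Trrap-FBΔ tissues (30 higher, 28 lower) and 2 for the difference. The block ended the control tissue calls of Neo1, Unc5b, Efnb2, Ntn5, Sema4a and Sema4c (adjusted p between 0.053 and 0.13). Within each tissue no paired analysis was possible because control and Trrap-FBΔ samples came from different mice. Changes that were not called reversed in 5 fits. With 1 library left out, the log2 fold change of Epha1 in the cortex ranged from -0.568 to 0.064 (above 0 without control mouse 58), that of Epha2 in the striatum from -0.0558 to 0.119 (below 0 without Trrap-FBΔ mouse 61 or control mouse 63), and that of Sema3f in the cortex from -0.0239 to 0.0974 (below 0 without Trrap-FBΔ mouse 61 or control mouse 64). The cause was not tested. Of the values of single genes, 2112 kept their direction and side of the threshold, 283 were no longer called, 4 became called and 10 TPM values moved with the transcript length. Sex was unequal between genotypes (2 of 4 control and 3 of 4 Trrap-FBΔ cortices, and 1 of 4 control and 3 of 4 Trrap-FBΔ striata, were female), and sex as a covariate ended the striatal calls of Slit2, Unc5c, Epha4, Plxna2 and Sema6b and the cortical calls of Slit2, Sema3e, Sema4f, Epha10, Unc5b and Plxnb3 (adjusted p between 0.051 and 0.13).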
